A study of Drosophila melanogaster with 19 samples.

Results

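Translation initiation factors (eIF) load the ribosome and the initiator tRNA onto a messenger RNA, and translation elongation factors (eEF) then carry the ribosome along it. The genes described here are all those with a FlyBase symbol that starts with eIF or eEF. The symbol alone set membership, but this list was chosen with earlier results of these data known. They number 52 of the 13929 genes in the deposited tables, with 44 eIF genes and 8 eEF genes, and no such symbol of the reference table was missing from the count tables. They lie on all major chromosome arms, with 13 on 2R, 15 on 3R, 11 on 3L, 5 on 2L, 7 on X and 1 on chromosome 4.

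RNA-seq was run on nuclear RNA of photoreceptors from male Drosophila melanogaster, whose nuclei were tagged with GFP on the nuclear membrane and enriched with an antibody. All groups shared 1 genotype, with the transgenes UAS-GFP-Msp300KASH at attP2 and rh1-GAL4, marked with w and ry sequences, in flies carrying w and ry[506]. The rh1 promoter is active in outer photoreceptors, and each library came from a pool of flies. Flies were aged to day 20, 30, 40, 50 or 60 after eclosion (D20, D30, D40, D50 and D60, 3 libraries each) at 25 degrees C, with 12 h of light and 12 h of darkness, and collected at zeitgeber time 6. Flies kept in constant darkness (DD) and flies kept in a light:dark cycle (LD) had 2 libraries each, and their age was not used because the labels and the column headings differ on it.

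Elongation is carried by eEF1alpha, which brings aminoacyl-tRNA to the ribosome, by the eEF1 exchange subunits that reload eEF1alpha with GTP, by eEF2, which moves the ribosome along, and by eEF5, the fly name of eIF5A, which helps where peptide bonds form slowly. In initiation, eIF2 delivers the initiator tRNA and eIF2B recycles eIF2, the many-subunit eIF3 holds the small ribosomal subunit, and the eIF4 proteins bind the cap and unwind the 5′ end of the message. Phosphorylation of eIF2alpha and sequestering of eIF4E by 4E-BP are the best-known switches of this pathway under stress. The values below are amounts of nuclear RNA and say nothing of protein or of translation.

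Depth set what could be measured. Total counts were 629634 to 864536 in the D30 to D60 libraries, 4525799 to 5100377 at D20 and 16255052 to 19704692 in DD and LD, so 3 counts correspond to 3.47 to 4.76 CPM (counts per 1000000 counts of a library) at D30 to D60 and to at most 0.663 CPM elsewhere. D30 to D60 stood in 1 table and D20, DD and LD in another, and CPM were scaled with the TMM factors of edgeR within a table. The LD libraries differed most from each other, with 6002 genes detected in LD replicate 1 and 8259 in LD replicate 2. All 12 outer photoreceptor markers had counts in all groups, with a summed level of 61270 to 144200 CPM. The 4 inner photoreceptor markers together reached 64.5 to 191 CPM at D20 to D60, but 4019 to 5176 CPM in DD and 2814 to 2870 CPM in LD.

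The factor genes took a small part of the nuclear RNA. Their share of all counts was 0.259% ± 0.00773 in D20 libraries, 0.257% ± 0.0136 in D30, 0.289% ± 0.0160 in D40, 0.311% ± 0.0416 in D50 and 0.310% ± 0.0114 in D60 libraries (SD, n = 3 each). The 8 eEF genes alone had a share of 0.140% ± 0.00577 at D60, against 0.0942% ± 0.0194 at D30, and the libraries did not overlap. The 44 eIF genes had a share of 0.170% ± 0.00677 at D60, against 0.163% ± 0.00792 at D30, and here the libraries overlapped. In DD the whole list took 0.464% and 0.516% of counts, against 0.492% and 0.686% in LD.

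Levels between genes were compared per length, as CPM per kb of annotated exon. At D60 the order began with *eEF1alpha1* at 253 ± 23.3, *eEF2* at 126 ± 8.21 and *eEF1alpha2* at 98.5 ± 7.76 CPM per kb (SD, n = 3), each apart from the next by more than its spread. Next came *eIF4G1*, the scaffold of the cap-binding complex, at 52.9 ± 2.26, the RNA helicase *eIF4A* at 46.2 ± 5.02, the eEF1 subunit *eEF1gamma* at 45.3 ± 5.10 and *eEF5* at 39.9 ± 3.49 CPM per kb, and among these each gene overlapped with the next in the order by library. The median of the 52 genes was 12.1 CPM per kb at D60 and 11.0 at D30. At D30 *eEF1alpha2* had a mean of 139.8 ± 48.8 CPM per kb and *eEF1alpha1* one of 122 ± 0.958. The mean of *eEF1alpha2* was the higher one through D30 replicate 1 (196), since in replicates 2 and 3 it was at 117 and 106.5, below the 123 and 121 of *eEF1alpha1*. At D20 the genes stood at 138 ± 4.80 and 135 ± 11.5 and did not differ beyond their spread.

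**Figure D1:**
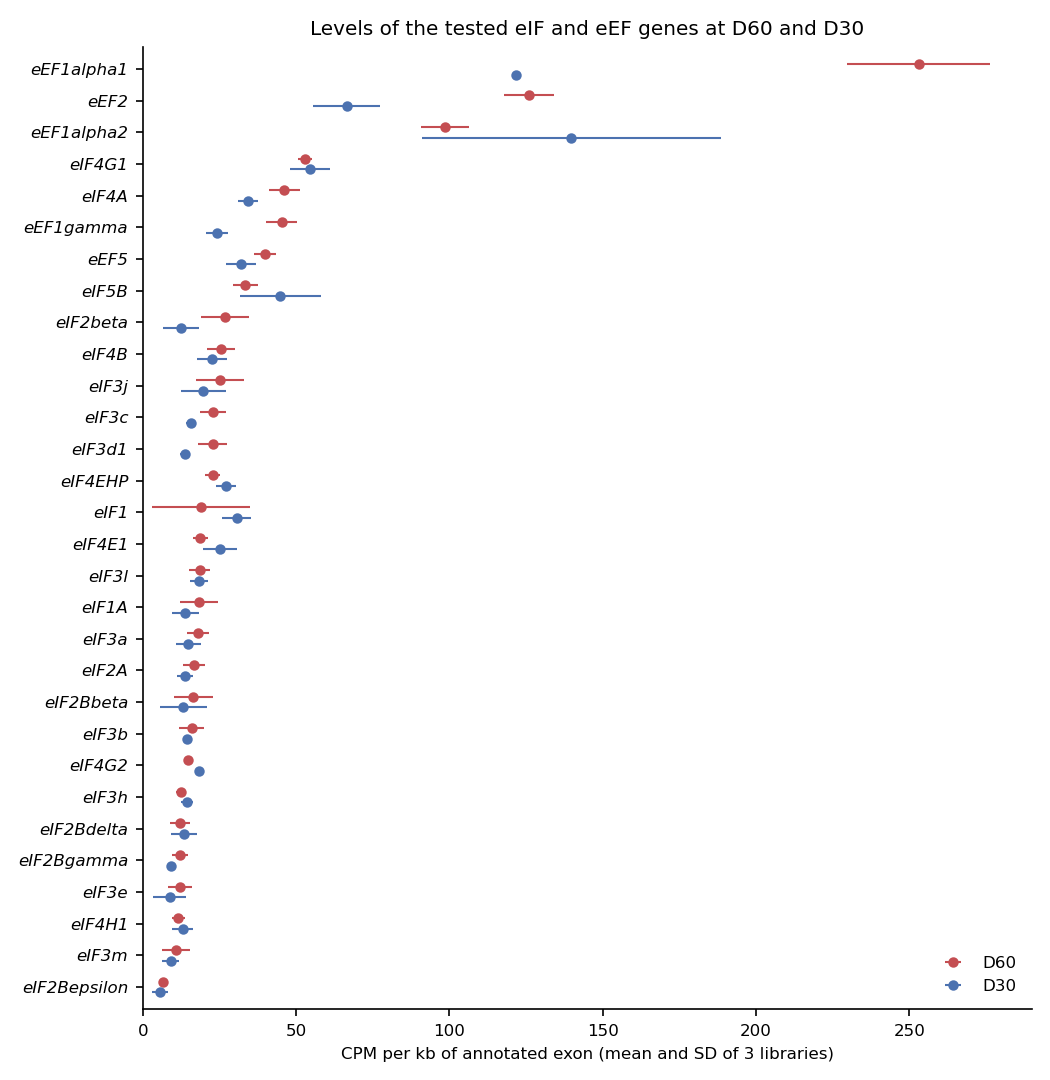
Level of each of the 30 factor genes tested between D60 and D30, in CPM per kb of annotated exon on the horizontal axis, with 1 row per gene. Points are means and bars are SD of 3 libraries, D60 above D30. *eEF1alpha1* (253), *eEF2* (126) and *eEF1alpha2* (98.5) have the highest levels at D60, and *eEF1alpha2* has the widest bar at D30.

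At the low end, 9 of the 52 genes were under 1 CPM per kb at D60. All of them but *eEFSec* are further copies of a factor. *eIF3f2*, *eIF3g2* and *eIF4E3* to *eIF4E7*, which are paralogs of widely used initiation factors, had at most 1 count in any library of D30 to D60. *eIF4H2* had 0 or 1 there. *eIF3d2*, a second copy of *eIF3d1*, had 0 to 6 counts in those libraries but is not among the 9, at 1.63 CPM per kb at D60. The main copies of the same factors were all detected, with *eIF3d1* at 37.2 to 56.2 CPM at D60. *eEFSec*, the selenocysteine-specific elongation factor, had 0 to 3 counts. The start-codon factor *eIF5* had at most 4 counts, but 80.8% of its annotated exon length is shared with the gene *CG46312*, and how reads in shared exons were counted for these tables is not stated in the sources used here.

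Between D60 and D30, 30 of the 52 genes passed the expression filter and were tested with the quasi-likelihood test of edgeR. Genes with an adjusted p under 0.05, corrected over all genes tested, are called changed. Of the 30, 4 were called higher at D60 (13.3%), where 12.9% of the 4068 genes tested were called higher. None of the 30 was called lower, where the share among all genes was 10.7%, and 9 of the 30 had an unadjusted p under 0.05, with 35.8% among all genes. DESeq2 called 3, all higher (10.0%, with 16.7% among all genes in either direction). The median log2 fold change was 0.28 for the 30 genes and -0.01 for all genes, and 20 of the 30 lay above 0. The members' median was 0.13 without D30 replicate 3, 0.18 without D30 replicate 1 and 0.13 with offsets for gene length. The libraries of both ages did not overlap for 8 genes that were higher at D60 (20.2% of all genes tested were) and for 2 that were lower (19.7% of all). The other 22 genes did not pass the filter and had at most 14 counts in any of these libraries. Without D30 replicate 1 edgeR called 7 of 31 (22.6%), where 34.4% of all genes were called. Without replicate 1 of both ages it called 10 of 30 (33.3%), where 31.1% of all genes were, with 8 higher and 2 lower (*eIF1* and *eIF5B*), and 7 of the 10 were initiation factors.

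Of the 4 genes called, 3 were elongation factors, and whether eEF and eIF genes differed was not tested. In BDGP6 coordinates, *eEF1alpha1* lies on chromosome 2R from 11891135 to 11895762, *eEF2* on 2L from 21677913 to 21682164 and *eEF1gamma* on 3R from 29220172 to 29222109, all as protein-coding genes free of exon overlap with others. *eEF1alpha1* had 636, 561 and 674 CPM at D60, against 299, 302 and 297.5 CPM at D30. The lowest D60 library was thus well above the highest D30 library, and the log2 fold change was 1.07 ± 0.11 (SE; edgeR adjusted p = 3.15e-05). *eEF2* had 358, 391 and 407 CPM at D60, against 221, 224 and 165 CPM at D30. Again all D60 libraries were higher, with a log2 fold change of 0.94 ± 0.14 (edgeR adjusted p = 0.000506). *eEF1gamma* had 67.0, 83.7 and 79.4 CPM at D60, against 47.0, 34.6 and 41.2 CPM at D30, and rose by 0.93 ± 0.20 (edgeR adjusted p = 0.00594). The calls of these 3 genes held in each of the 6 fits that left out 1 library and under every other setting tried for this comparison.

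The remaining elongation factors did not pass. *eEF5* had 29.8, 35.3 and 31.5 CPM at D60, against 29.76, 25.6 and 22.1 CPM at D30, a log2 fold change of 0.34 ± 0.26 (edgeR adjusted p = 0.39). It is among the 8 genes without overlap, though its nearest libraries of both ages almost touched. *eEF1beta* and *eEF1delta*, the nucleotide exchange subunits of eEF1, and *eEFSec* were too low to be tested, with at most 10 counts in any of the 6 libraries.

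The paralog *eEF1alpha2*, on 3R from 31738468 to 31743306, had the opposite sign to *eEF1alpha1*. It had 269.7, 277 and 238 CPM at D60, against 520.0, 311 and 283 CPM at D30. The D60 libraries were all below those of D30, of which replicate 1 was far above the others, and the log2 fold change of -0.49 ± 0.21 was not called (edgeR adjusted p = 0.116). Without D30 replicate 1 the log2 fold change was -0.16, and without D30 replicate 3 it was -0.66 with an adjusted p of 0.0434. It was also called lower with no filter and under the replicate block with length offsets. The same-numbered D40 library was also high in *eEF1alpha2*, at 459 CPM beside 226 and 239 CPM.

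Counts of the pair show the shift within each library. *eEF1alpha1* made up 70.2%, 66.9% and 73.9% of the counts of both paralogs at D60, against 36.5%, 49.3% and 51.3% at D30. The 95% Wilson intervals of the D60 libraries began at 63.2% or higher and those of D30 ended at 56.2% or lower, which covers counting error only. The share was 47.6% ± 2.86 at D20, 60.1% ± 8.87 at D40 and 62.9% ± 7.13 at D50 (SD, n = 3 each), and D40 replicate 1 stood below the rest of its group at 49.9%. The paralogs code for closely related proteins, and how reads that fit both were counted is not stated in the sources used here. This share was formed after the values had been seen and was not tested.

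**Figure D2:**
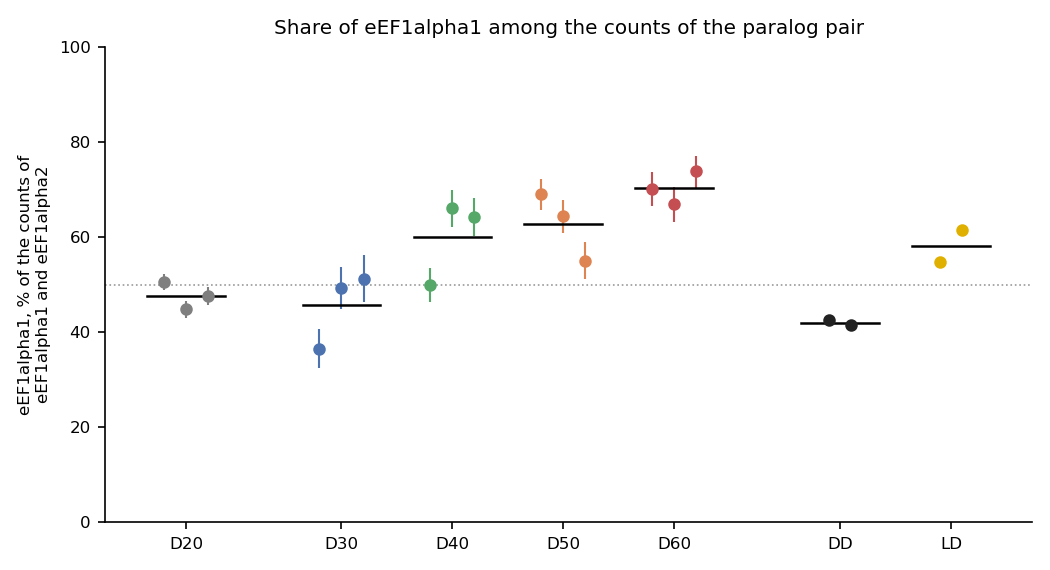
Share of *eEF1alpha1* in the summed counts of *eEF1alpha1* and *eEF1alpha2*, in percent, for each of the 19 libraries. Points are libraries with 95% Wilson intervals, horizontal lines are group means, and the dotted line marks 50%. All D60 libraries lie above all D30 libraries, and both DD libraries (42.6% and 41.5%) lie below both LD libraries (54.8% and 61.5%).

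Among the initiation factors, *eIF3d1* alone was called between D60 and D30. *eIF3d1*, on 3R from 23680039 to 23682317, codes for the subunit of eIF3 that can contact the cap in human cells. It had 37.2, 44.5 and 56.2 CPM at D60, against 25.1, 30.7 and 26.5 CPM at D30. The groups did not overlap, and the log2 fold change was 0.76 ± 0.25 (edgeR adjusted p = 0.0472). This call was lost in 11 of 16 alternative fits, among them DESeq2 (adjusted p = 0.177), the fit with the replicate number as a block (adjusted p = 0.069) and 5 of the 6 fits without 1 library. Of the 16 eIF3 genes, 9 were tested, and 8 of the 9 had a log2 fold change above 0, with a median of 0.29. *eIF3c*, a core subunit, had 68.5, 92.8 and 67.1 CPM at D60, against 50.1, 48.6 and 58.9 CPM at D30 (log2 fold change 0.56 ± 0.20, edgeR adjusted p = 0.0622). *eIF3c* was called when 10 counts were required in every library, without D30 replicate 1 and without replicate 1 of both ages. The rest of the complex lay between -0.20 for *eIF3h* and 0.48 for *eIF3e*, with standard errors of 0.24 to 0.43.

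Of the 13 eIF4 genes, 7 were tested, with a median log2 fold change of -0.15. None was called by edgeR with its default filter and all 6 libraries, or by DESeq2. In edgeR the unadjusted p was under 0.05 for *eIF4A* and *eIF4G2*. *eIF4A*, the helicase, had 101.3, 116 and 126 CPM at D60, against 94.0, 80.7 and 79.5 CPM at D30, and its log2 fold change of 0.46 ± 0.16 was just outside the threshold (edgeR adjusted p = 0.054). It was called higher when 10 counts were required in every library (adjusted p = 0.0401), without D30 replicate 1 (0.00799) and without replicate 1 of both ages (0.00615), and its adjusted p was 0.0503 to 0.226 in the other alternatives. *eIF4G2*, a paralog of *eIF4G1* known for its role in male germ cells, lay lower in all D60 libraries, at 139, 124 and 138 CPM, against 163, 168 and 171 CPM at D30, with a log2 fold change of -0.31 ± 0.12 (edgeR adjusted p = 0.0973). *eIF4G1* was almost level, at 346, 333 and 363 CPM at D60, against 310, 389 and 374 CPM at D30 (log2 fold change -0.03 ± 0.11). The cap-binding protein *eIF4E1* had 38.7, 39.2 and 47.9 CPM at D60, against 54.8, 69.1 and 44.2 CPM at D30, and the groups overlapped (log2 fold change -0.41 ± 0.23, edgeR adjusted p = 0.235). *eIF4EHP*, a cap-binding repressor, and *eIF4H1* and *eIF4B*, which assist *eIF4A*, gave log2 fold changes of -0.23, -0.15 and 0.19.

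Of the subunits of eIF2, *eIF2beta* was the only one tested between these ages. It had 22.4, 28.8 and 39.7 CPM at D60, against 6.26, 17.9 and 17.7 CPM at D30, so the groups did not overlap, but with a mean of 16.0 counts per library the log2 fold change of 1.11 ± 0.38 was not called (edgeR adjusted p = 0.0542). It was called higher with no filter, under the replicate block and without replicate 1 of both ages. *eIF2alpha*, the subunit that stress kinases phosphorylate, had 13.4, 15.7 and 8.22 CPM at D60, against 9.40, 8.96 and 7.36 CPM at D30, and did not pass the filter. The 4 tested subunits of eIF2B lay between -0.14 for *eIF2Bdelta* and 0.38 for *eIF2Bgamma*, with no adjusted p under 0.454. *eIF1*, which guards start-codon choice, scattered at D60 (25.3, 7.84 and 5.48 CPM, against 17.2, 21.8 and 23.6 CPM at D30), and its log2 fold change of -0.71 had an SE of 0.47. *eIF1A*, its partner in scanning, gave 0.40 ± 0.34, and *eIF2A*, which can bring initiator tRNA without eIF2, gave 0.32 ± 0.25. *eIF5B*, which joins the ribosomal subunits, had 131, 166 and 145 CPM at D60, against 133, 212 and 247 CPM at D30, with overlap (log2 fold change -0.40 ± 0.19, edgeR adjusted p = 0.159). It was called without D30 replicate 1 and without replicate 1 of both ages.

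**Figure D3:**
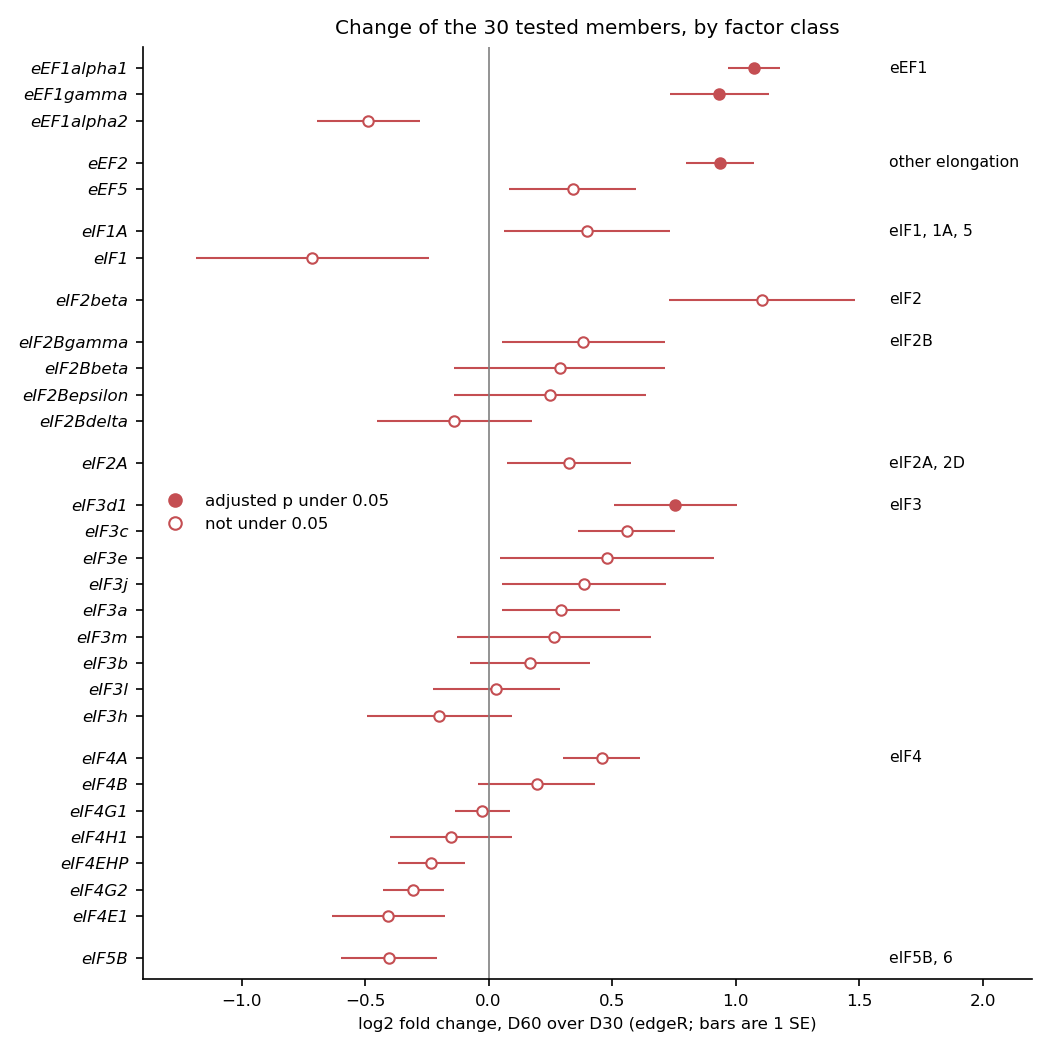
Log2 fold change of D60 over D30 for the 30 tested factor genes, grouped by class from top to bottom. Points are edgeR estimates with bars of 1 SE, and filled points have an adjusted p under 0.05. The filled points are *eEF1alpha1* (1.07), *eEF2* (0.94), *eEF1gamma* (0.93) and *eIF3d1* (0.76), and most eIF4 genes lie at or below 0.

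Between the same groups, 2 of the 12 outer photoreceptor markers were called higher at D60 and none lower. These were *trp* and *trpl*, with log2 fold changes of 0.68 and 0.50 (edgeR adjusted p = 0.00439 and 0.00152). The 12 summed to 75460 to 80700 CPM at D60, against 67460 to 74140 CPM at D30. Markers of other cells moved too. The 5 glial markers summed to 371 to 426 CPM at D60, against 111 to 124 CPM at D30, with 1 of the 3 tested called higher. This was *Eaat1*, at 315 to 351 CPM at D60, against 28.0 to 61.1 CPM at D30, while *Gs2* and *moody* had log2 fold changes of -0.23 and -0.29 and were not called. The 4 fat body markers summed to 1123 to 1228 CPM at D60, with *Fbp1* at 0, against 420 to 587 CPM at D30, with *Fbp1* and *Yp1* at 0. Most of these sums was *FASN1*, at 1120 to 1224 CPM at D60, against 405 to 583 CPM at D30, the 1 tested and called higher. *Lsp2* was lower in all D60 libraries, at 1.37 to 2.62 CPM, against 4.70 to 14.7 CPM at D30. *Yp1* reached 1.31 to 2.98 CPM at D60. Muscle markers summed to 32.9 to 41.7 CPM at D60, with *Act88F* at 0, against 34.5 to 88.3 CPM at D30, with *Act88F* and *TpnC4* at 0. Markers of other neurons summed to 68.5 to 86.4 CPM at D60, against 64.2 to 105 CPM at D30, those of blood cells to 27.4 to 40.5 CPM, against 21.9 to 26.5 CPM, and the lens gene *Crys* was at 0, against 0 to 1.47 CPM. The part of these cells in the values of the factor genes was not tested. In bulk nuclei, a change in the number of nuclei of a type and a change in the RNA of each nucleus cannot be told apart.

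The mean values at D40 and D50 lay between those of D30 and D60 for the leading elongation factors. *eEF1alpha1* had 458, 441 and 431 CPM at D40 and 602, 545 and 442 CPM at D50. *eEF2* had 308, 328 and 311.5 CPM at D40 and 469.8, 301 and 255 CPM at D50. *eEF1gamma* had 60.6, 71.4 and 73.7 CPM at D40 and 116, 51.2 and 54.8 CPM at D50. All of these libraries were above those of D30, and D50 replicate 1 was the highest of its group for each gene. In that library *eIF4G1* (218 CPM), *eIF4G2* (114 CPM) and *eIF4EHP* (87.9 CPM) were the lowest of their group.

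Between D50 and D30, 1 of the 30 tested genes was called, *eEF1alpha1*, with a log2 fold change of 0.85 ± 0.16 (edgeR adjusted p = 0.0321). It was higher at D50, as were 1.17% of the 4179 genes tested, and 1.36% were called in either direction. Without overlap between the libraries, 8 of the 30 were higher (10.3% of all genes) and 1, *eIF4G2*, was lower (11.1% of all). The call was lost without D30 replicate 2 (adjusted p = 0.124), D30 replicate 3 (0.148), D50 replicate 1 (0.0844) or D50 replicate 2 (0.126), with a log2 fold change of 0.73 to 0.96 in all 6 such fits. Between D40 and D30, edgeR called 0 of the 31 tested genes and 0.0238% of 4209 genes, while 7 of the 31 had an unadjusted p under 0.05, with 6.70% among all genes, and DESeq2 called 0. The 7 were *eEF1alpha1*, *eEF2*, *eEF1gamma*, *eIF4A*, *eIF2beta* and *eIF3d1*, with log2 fold changes of 0.43 to 0.83, and *eIF4EHP*, with -0.45. The libraries did not overlap for 6 genes that were higher at D40 (6.72% of all genes) and 2 that were lower (6.06% of all). Same-numbered libraries deviated together across genes in this comparison (correlation 0.126 to 0.283), though the labels state no pairing. With the number as a block 29 genes and none of the factor genes were called. All these comparisons share the D30 libraries.

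Over the 12 libraries of D30 to D60, a slope on age was fitted to 34 of the 52 genes. Rising slopes were called for 2 of the 34 (5.88%), and for 10.6% of the 4745 genes tested, while no falling slope was called among the 34, where the share among all genes was 8.32%. An unadjusted p under 0.05 was reached by 8 of the 34 (23.5%), with 31.1% among all genes, and DESeq2 called 3 (8.82%), all rising, with 18.4% among all genes. *eEF1alpha1* rose by 0.34 ± 0.05 and *eEF2* by 0.29 ± 0.07 on the log2 scale per 10 days (edgeR adjusted p = 4.44e-05 and 0.00536), and both calls held without any single library. *eEF1gamma* had a slope of 0.27 ± 0.10 (edgeR adjusted p = 0.0523). Without D40 replicate 1, in which *eIF3d1* reached 73.7 CPM beside 32.8 and 37.4 CPM, the slopes of *eIF3c* and *eIF3d1* were called too, giving 4 of 37 genes (10.8%), with 19.8% among all genes. The median slope was 0.09 for the 34 genes and -0.0032 for all genes.

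**Figure D4:**
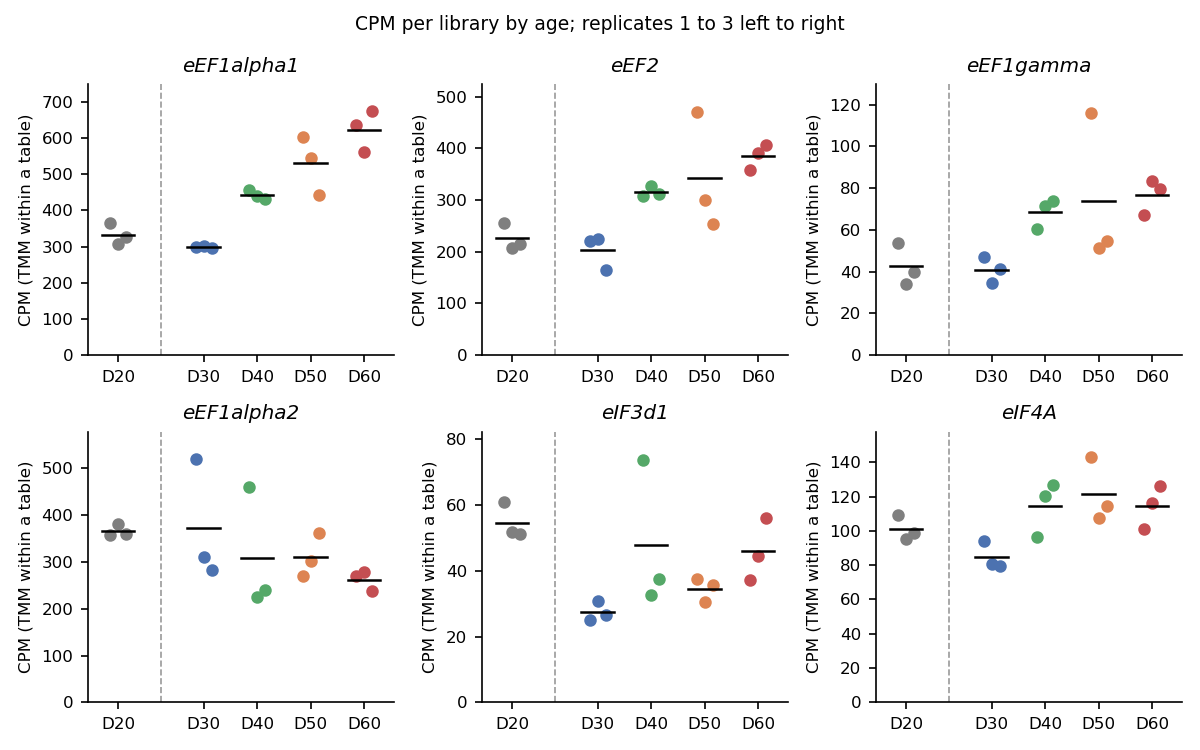
CPM of 6 factor genes in each library of D20, D30, D40, D50 and D60, on vertical axes that start at 0, with horizontal lines at group means. The dashed line separates the table of D20 from that of D30 to D60, whose CPM were scaled separately. *eEF1alpha1* has its lowest libraries at D30 (297.5 to 302 CPM) and its highest at D60 (561 to 674 CPM), and *eEF1alpha2* is highest in replicate 1 of D30 and D40.

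The other genes of the pathway were read from lists of regulators between D60 and D30. Of all 4068 genes tested there, 12.9% were called higher and 10.7% lower, 23.6% in all, and no list was tested against these shares. Of 13 regulators of cap-dependent initiation, 12 were tested and 1 was called, *pAbp*, the poly(A)-binding protein, at 336 ± 26.3 CPM at D60 and 253 ± 11.5 CPM at D30 (SD, n = 3 each, log2 fold change 0.42 ± 0.11, edgeR adjusted p = 0.018). *Thor*, the fly 4E-BP, had 47.3 ± 8.71 CPM at D60 and 57.4 ± 34.9 CPM at D30 and was not called. Of 7 genes for eIF2 kinases and the stress response, 6 were matched to a gene of the counts and 4 were tested. The kinase *Gcn2*, which senses uncharged tRNA, had 53.0 ± 12.0 CPM at D60 and 21.9 ± 12.7 CPM at D30 (log2 fold change 1.27 ± 0.36, edgeR adjusted p = 0.0249). *crc*, the fly ATF4, fell by 0.45 ± 0.14 on the log2 scale (edgeR adjusted p = 0.0377). *Dph1*, which takes part in the diphthamide modification of *eEF2*, had 202.5 ± 17.4 CPM at D60 and 131 ± 18.0 CPM at D30 and was the one gene called of 5 tested for termination, recycling and factor modification (log2 fold change 0.64 ± 0.14, edgeR adjusted p = 0.00578). Of 9 mitochondrial factors, 8 were matched and only *mEFTu1* was tested, and it fell by 1.25 ± 0.38 (edgeR adjusted p = 0.0339).

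D30 and D20 stand in different tables of very different depth. In their comparison an effect of age cannot be told apart from one of the table, and both groups were scaled together for it. Of the 52 genes, 41 were tested. None was called higher at D30 by edgeR, where 11.8% of the 6380 genes tested were, and DESeq2 also called 0 higher. Lower at D30 were 4 of the 41 (9.76%), close to the 9.48% of all genes, of which 21.2% were called in either direction. Without overlap, 0 of the 41 were higher (14.0% of all genes) and 14 were lower (25.0% of all), and 6 of the 41 had an unadjusted p under 0.05 (14.6%), with 33.5% among all genes. The median log2 fold change was -0.05 for the 41 genes and 0.01 for all genes.

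The 4 genes called lower at D30 are initiation factors, as are 34 of the 41 tested. *eIF2beta* had 5.91, 16.7 and 16.4 CPM at D30, against 33.6, 40.3 and 38.1 CPM at D20, with a log2 fold change of -1.37 ± 0.28 (edgeR adjusted p = 0.00336). *eIF3d1* had 23.7, 28.7 and 24.6 CPM at D30, against 56.9, 48.5 and 48.1 CPM at D20 (-0.88 ± 0.19, edgeR adjusted p = 0.0051). The groups of both genes are far apart, and both calls held in every fit in which the gene was tested. *eIF4H1* had 68.0, 54.97 and 38.2 CPM at D30, against 86.1, 100.1 and 93.0 CPM at D20 (-0.68 ± 0.18, edgeR adjusted p = 0.0138). Its call was lost without D30 replicate 3 (adjusted p = 0.0827) or D20 replicate 3 (0.0552). *eIF6*, which keeps the large ribosomal subunit free until joining, had 7.39, 8.37 and 6.83 CPM at D30, against 17.4, 17.7 and 17.6 CPM at D20 (-1.10 ± 0.30, edgeR adjusted p = 0.0186), and lost the call without D30 replicate 2 (adjusted p = 0.056) or 3 (0.0753), in DESeq2 (0.059) and under the replicate block with length offsets (0.0572). With a mean of 42.8 counts it lies under the limit of 50 set for named genes and was chosen after its values were seen. None of the 7 elongation factors tested was called. Log2 fold changes were -0.05 for *eEF1alpha1*, 0.13 for *eEF1alpha2*, -0.05 for *eEF2* and 0.03 for *eEF1gamma*, with standard errors of 0.11 to 0.23. The other log2 fold changes were 0.34 for *eEF5* (SE 0.245), -0.19 for *eEF1delta* (SE 0.37) and -0.05 for *eEF1beta* (SE 0.405). *eEF1alpha1* and *eEF1delta* were lower in all D30 libraries than in any of D20. In the lists of regulators, *Thor* (-1.06 ± 0.28), *crc* (-0.60 ± 0.13) and *Dph1* (-1.19 ± 0.13) were called lower and *mEFTu1* (1.10 ± 0.29) higher at D30. *eIF2beta*, *eIF3d1*, *Dph1*, *crc* and *mEFTu1* enter both this comparison and that of D60 with D30 with the same D30 libraries.

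Markers moved in this comparison as well. Of the 12 outer photoreceptor markers 5 were called lower and 1 higher at D30, with sums of 62570 to 69990 CPM at D30, against 92240 to 94810 CPM at D20. Fat body markers summed to 389 to 554 CPM at D30, with *Fbp1* and *Yp1* at 0, against 760.4 to 901 CPM at D20, and both that were tested, *FASN1* and *Lsp2*, were called lower. Those of glia summed to 105 to 116 CPM at D30, against 187.5 to 201.1 CPM at D20. Of these, *Eaat1* was called lower, at 25.9 to 57.7 CPM at D30, against 121 to 140 CPM at D20. The glial markers *repo*, *Gs2* and *moody* had log2 fold changes of 0.08, 0.11 and 1.43 and were not called. Those of blood cells summed to 20.7 to 24.6 CPM at D30, against 62.7 to 71.1 CPM at D20, with *Hml* called lower. The inner photoreceptor genes *Rh3* and *Rh4* and the muscle gene *Mhc* were called higher at D30. Their part in the values of the factor genes was not tested.

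Between DD and LD, 42 of the 52 genes were tested. By edgeR 0 of the 42 were called, where 0.025% of 8003 genes were, 0.0125% in each direction, and 2 had an unadjusted p under 0.05, *eIF1* and *eIF4EHP*, with 8.43% among all genes. DESeq2 called the same 2 genes (4.76%) and 974 genes in all (12.2%). The biological coefficient of variation was 1.17 here, against 0.13 between D60 and D30. In LD, 6 of the 41 factor genes with at least 50 counts in 1 library had 0 in the other (*eEF1delta*, *eEFSec*, *eIF2Bdelta*, *eIF2Bgamma*, *eIF3k* and *eIF6*), or 14.6%, with 27.8% among all genes. In DD there were 0 of 41, with 6.97% among all genes. Without LD replicate 2, 13 of 44 factor genes were called (29.5%), where 25.5% of all genes were, and without LD replicate 1, 2 of 44 were (4.55%), where 6.35% of all genes were.

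Among members with a mean of at least 50 counts whose libraries did not overlap, the largest increases in DD were those of *eIF2beta*, *eIF1* and *eIF2Bgamma* and the largest decreases those of *eIF3i*, *eIF4EHP* and *eEF5*. *eIF1* had 48.6 and 71.8 CPM in DD, against 24.4 and 11.5 CPM in LD, with a log2 fold change of 1.74 ± 0.58 (edgeR adjusted p = 0.444), but -0.77 once offsets for gene length were used. *eIF2beta* had 24.0 and 9.22 CPM in DD, against 0.365 and 8.34 CPM in LD (1.89 ± 1.82). *eIF2Bgamma* had 9.28 and 19.5 CPM in DD, against 0 and 8.58 CPM in LD (1.70 ± 2.47). For both genes the nearest libraries of the groups almost touched. The cap-binding repressor *eIF4EHP* was lower in DD, at 130 and 110.3 CPM, against 255 and 173 CPM in LD (-0.84 ± 0.25, edgeR adjusted p = 0.355). *eIF3i* had 16.0 and 12.2 CPM in DD, against 28.7 and 36.6 CPM in LD (-1.23 ± 0.72), and *eEF5* had 29.2 and 28.6 CPM, against 40.9 and 41.2 CPM (-0.53 ± 0.49). The values of *eEF5* differ little within each group. With offsets for gene length the log2 fold changes of *eIF3i* and *eEF5* were -2.90 and -2.55. That of *eIF2Bgamma* was 4.71 under the replicate block and 0.70 without LD replicate 1, and that of *eIF2beta* was 3.02 and 0.95 in the same fits. Without LD replicate 2 both were called by edgeR (adjusted p = 0.00364 for *eIF2Bgamma* and 0.0114 for *eIF2beta*).

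Markers differed between DD and LD too, with none called. Outer photoreceptor markers summed to 132300 to 144200 CPM in DD, against 75030 to 81560 CPM in LD. Sums of 14.8 to 15.95 CPM in DD, against 76.0 to 114 CPM in LD, were found for muscle, with *Act88F* and *TpnC4* at 0 in both, and of 27.3 to 29.1 CPM in DD, against 145 to 204 CPM in LD, for blood cells, with *NimC1* at 0 in LD. Fat body markers summed to 507 to 527 CPM in DD, against 691 to 706 CPM in LD with *Fbp1* at 0, and those of other neurons to 249 to 265 CPM in DD, against 349 to 569.9 CPM in LD. Glial sums overlapped, at 349 to 361 CPM in DD, against 274 to 625 CPM in LD. Their part in the values of the factor genes was not tested.

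The paralogs of eEF1alpha had opposite signs here too. *eEF1alpha2* had 910 and 1066 CPM in DD, against 616 and 780.0 CPM in LD, while *eEF1alpha1* had 676 and 755 CPM in DD, against 749 and 1245 CPM in LD. Their log2 fold changes were 0.48 ± 0.20 and -0.50 ± 0.28 (edgeR adjusted p = 0.585 and 0.683). The share of *eEF1alpha1* in the pair was 42.6% and 41.5% in DD, against 54.8% and 61.5% in LD, with 95% Wilson intervals that spanned 40.9% to 43.2% over the DD libraries and 54.2% to 61.9% over the LD libraries. With 2 libraries in each group, an exact permutation test of such a value could not go below p = 0.333, and none was run. Across all genes, 25.6% were higher without overlap in DD and 16.8% lower, and for the factor genes these shares were 26.2% and 9.52%.

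**Figure D5:**
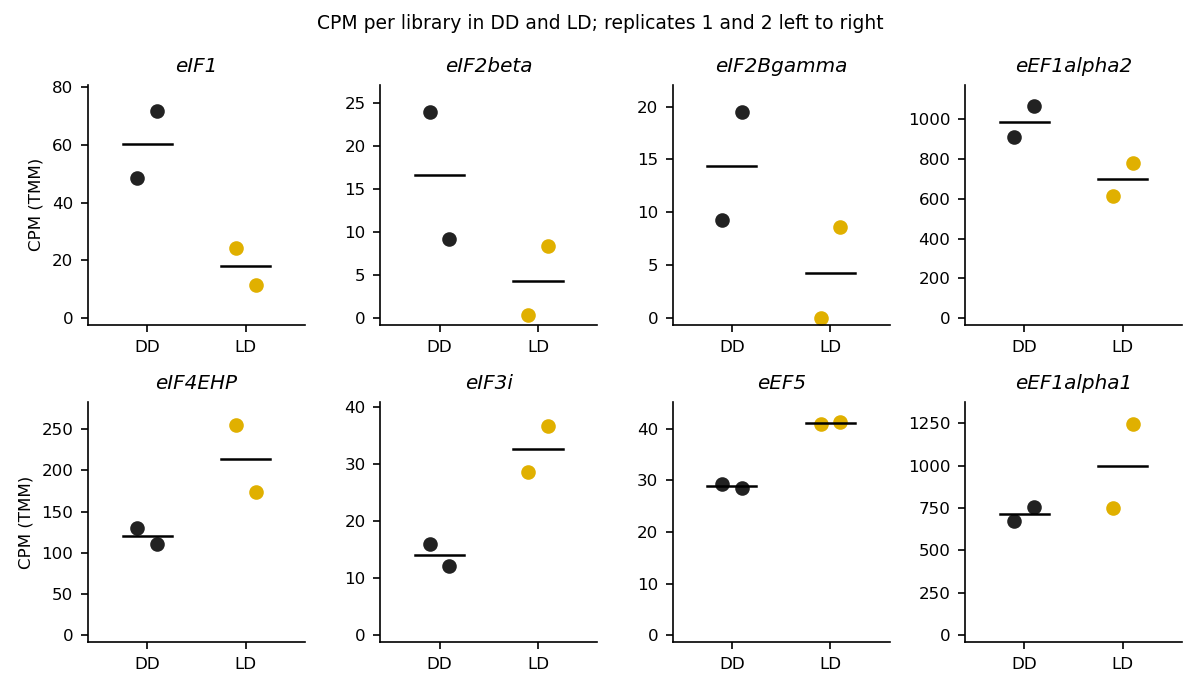
CPM of 8 factor genes in the DD and LD libraries, on vertical axes that include 0, with 2 libraries per group and horizontal lines at group means. *eIF1*, *eIF2beta*, *eIF2Bgamma* and *eEF1alpha2* are higher and *eIF4EHP*, *eIF3i* and *eEF5* lower in both DD libraries. No gene shown was called by edgeR with its default filter, no block and both libraries of each group.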

How the data were processed

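Raw counts per gene were deposited by the authors in 2 tables without normalization. The submitters' processing notes name Trimmomatic, STAR, SAMtools and DESeq2 and the builds dm6 and BDGP6, while versions, annotation release, strand setting and duplicate handling are not given in the sources used here, so counts of overlapping or near-identical genes are uncertain. The study's methods name gene counts from STAR for an analysis of transcription factor activity, and whether the deposited tables were made so is not stated. Positions, lengths and symbols came from the Ensembl annotation of BDGP6 (release 115), which matched 13866 of 13929 identifiers. The deposited counts were fitted with glmQLFit and glmQLFTest of edgeR 4.0.16 (R 4.3.3, limma 3.58.1), using TMM, the default filter (minimum count 10, minimum total 15), only the groups compared, no covariate, two-sided tests and Benjamini-Hochberg adjustment over all genes tested. SE was derived from F and the log2 fold change. Libraries are separate pools of flies by the study's methods. Alternatives were RLE size factors, DESeq2 (version 1.42.0), plain library size, no filter or a filter of 10 counts in all libraries, gene length offsets, the replicate number as a block, shared fits and leaving out libraries.

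The members, gene lists and markers were chosen with earlier results of these data known. Named were all members called in a comparison of D30 to D60, members called between D30 and D20 or separated most between DD and LD with a mean of at least 50 counts, and the best-known members. Replicate numbers came from the sample titles, and same-numbered libraries deviated together between D40 and D30 (correlation 0.126 to 0.283 across genes in all 3 pairs) but not in the other comparisons. On simulated counts in which 200 genes had a log2 change of 2, edgeR recovered 99% of them between D60 and D30 (3921 genes) and 23.5% between DD and LD (7166 genes). Of the calls on those counts, 2.46% were false between D60 and D30 and 9.62% between DD and LD. The tested members had log2 fold changes of -0.71 to 1.11 between D60 and D30. Recovery of changes of that size was not tested. No sequence was used here.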

Additional observations from a re-analysis of the deposited data

How the results depend on the processing

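For D60 against D30, the calls of *eEF1alpha1*, *eEF2* and *eEF1gamma* held in all 16 alternatives, and no log2 fold change of a named member changed sign. Leaving out 1 library gave 612 to 1492 genes (14.3% to 34.4%) and 3 to 7 members (9.68% to 22.6% of those tested). Leaving out both replicate 1 libraries gave 10 members (33.3%, with 31.1% among all genes). For D50 against D30, 233 genes (2.01%) and 2 of 50 members (4.0%) were called with no filter. A fit shared by the 4 ages called 151 genes (3.18%) and 2 of 34 members (5.88%). With the block and length offsets together, 0 members were called. Leaving out 1 library gave 21 to 78 genes (0.46% to 1.73%) and 0 or 1 member (0% to 3.03%). For D40 against D30, DESeq2 called 7 genes, no filter 62 and the shared fit 8, with 0 to 15 when 1 library was left out, and members called stayed at 0 throughout. For the slope, 4 of 23 members (17.4%) were called when 10 counts were required in all libraries, with 21.5% among all genes. An F-test over the 4 ages with no set shape called 559 genes. Leaving out 1 library gave 602 to 986 genes (11.9% to 19.8%) and 2 to 4 members (5.41% to 10.8%). For D30 against D20, leaving out 1 library gave 894 to 1769 genes (11.8% to 24.6% of those tested) and 2 to 5 members (4.76% to 12.5%). For DD against LD, 974 genes were called by DESeq2, 9 with library size alone and 279 with no filter. The number was 109 when 10 counts were required in all libraries, 0 with length offsets and 279 in a fit shared with D20. Members called were 2 of 42 by DESeq2 (4.76%, with 12.2% among all genes) and 1 of 44 with no filter (2.27%, with 2.85%). Leaving out 1 DD or LD library gave 44 to 2241 genes and 0 to 13 members, where the lone library is assumed to vary like the other group. *eIF1* turned to -0.77 between DD and LD with length offsets. The cause of these changes was not tested.

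Under the replicate block, 914 genes were called for D60 against D30, 53 for D50 against D30 and 29 for D40 against D30 (36 with length offsets as well). The block gave 869 for the slope, 1154 for D30 against D20 and 326 for DD against LD (28 with length offsets as well). Without length offsets, 1 of 42 members was called under the block for DD against LD (2.38%, with 4.07% among all genes). The labels give a replicate number only and state no pairing of libraries. At the depth of D30 to D60, 22 of the 52 genes could not be tested between D60 and D30.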

Other observations

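At D20, where libraries were deeper, 44 of the 52 factor genes had counts in all 3 libraries, beside 41 at D30 and 43 at D60. *eEF1beta* and *eEF1delta*, which were too low to test at D60, had 8.53 to 11.1 and 7.93 to 8.56 CPM at D20. *eIF2beta* averaged 13.0 ± 6.15 CPM at D30 and 37.3 ± 3.38 CPM at D20 when scaled together, and 30.3 ± 8.78 CPM at D60 within the table of D30 to D60. Its mean was 16.0 counts per library over D60 and D30.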
